A study of Mus musculus with 7 samples.

Results

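The ubiquitin-specific proteases (USPs) were described over 7 RNA-seq libraries of mouse regulatory T (Treg) cells, with Usp8 set against the other members. Members were the genes of the deposited table whose symbol is Usp followed by a number and at most a short suffix, with 1 symbol left out by the rule. This gave 45 genes of 15815 in the table, 42 of them with a mean of at least 10 normalized counts and so tested. Usp8 was singled out because it differed between the groups in these same libraries, that is, it was chosen by its KO and WT levels, so its difference is given as a description, with no test.

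The cells were YFP+ Treg cells sorted by flow cytometry from mesenteric lymph nodes of Rag-/- mice, which have no T or B cells of their own. Each host had received naive T cells and Treg cells, both WT, together with YFP+ Treg cells that were either WT (4 libraries, WT 1 to 4) or deficient in Hpgd (3 libraries, KO 1 to 3), and was killed 8 weeks later. All 7 samples carry the same line label, a floxed Hpgd allele with a YFP-tagged Cre under Foxp3 control, on strain C57BL/6JRcc, so only the titles separate WT from KO, and Cre acts in Foxp3-expressing cells. The age of the mice, and whether each library came from a separate host, are not given in the sources used here, and p-values here reflect only how these libraries vary, which can be partly technical. The product of Hpgd breaks down prostaglandins.

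Ubiquitin is a small protein that enzymes attach to other proteins, singly or in chains, to mark them for the proteasome, for sorting at endosomes or for signalling. USPs are cysteine proteases that remove it, and they form the largest family of deubiquitinases. In T cells, members of the family act on receptor sorting, on NF-kB and TGF-beta signalling, and on the stability of Foxp3, the transcription factor that defines Treg cells. Usp8 works at endosomes, where it binds the ESCRT-0 proteins Stam and Hgs and removes ubiquitin from receptors on their way to lysosomes.

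The catalytic cysteine that defines the family lies in a short conserved stretch, and its coding sequence is shown here for Usp8 and for 4 members that bear on the results below. Lines run 5′ to 3′ on the coding strand of GENCODE M21 transcripts (GRCm38, the assembly of mm10), and capitals mark the codon of the catalytic cysteine, or the codon in its place.
Usp8: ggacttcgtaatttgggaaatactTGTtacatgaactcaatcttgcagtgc
Usp50: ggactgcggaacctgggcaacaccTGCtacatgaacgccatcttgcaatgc
Usp3: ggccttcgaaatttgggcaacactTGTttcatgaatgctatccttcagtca
Usp54: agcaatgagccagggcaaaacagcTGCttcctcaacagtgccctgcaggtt
Usp39: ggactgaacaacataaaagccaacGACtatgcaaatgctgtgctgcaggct
The Usp8 stretch lies in 1 coding exon (chr2:126751077-126751127, plus strand) and holds codon 759 of 1091. A stretch of this kind was found in all 45 members, and 44 had a cysteine codon at that place. The exception was Usp39, a splicing factor with no protease activity. The search pattern used broad classes of residues, allowed aspartate at that place and held the Usp39 stretch itself, so the match of Usp39 was built in. Aligned without gaps over 51 bases, the other members shared between 16 (Usp53) and 40 (Usp50) bases with Usp8, with a median of 32. Usp50, the most alike, is also the neighbour of Usp8, because the spans of both genes overlap on chromosome 2 on opposite strands (126707328 to 126759297 for Usp8 and 126709096 to 126783470 for Usp50), with no exon in common. No 31-base word of any Usp8 transcript occurred in a transcript of another gene (0%), so sequence shared with another annotated transcript does not bear on the Usp8 count at that word length. Among the other members the share of such words ranged from 0% (as for Usp24) to 50.8% (Usp49). It was 31.6% for Usp1, 25.8% for Usp14, 23.6% for Usp33 and 21.3% for Usp38. What part this has in their counts was not tested.

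Several facts of the whole series bear on what follows. Reads behind the table numbered 4135733 (KO 3) to 10622507 (WT 4) per library. Hpgd itself was at 18.7, 9.96, 10.2 and 13.4 in WT 1 to 4, and at 0.759, 2.42 and 5.52 across KO 1 to 3. Its groups did not overlap, beside 3.67% of all genes in the table, although reads from undeleted exons would still be counted. Hpgd lay below the tested level and rested on 63 reads, with 1, 3 and 3 in KO 1 to 3. Foxp3 was at 107, 56.1, 161 and 103 in WT 1 to 4, and at 123, 107 and 142 across KO 1 to 3, and the T cell gene Cd3e was between 1977 and 3021. Of 8 myeloid markers all 8 were listed, with summed levels of 1087 to 3336 in WT and 1788 to 3033 in KO, and of 5 B cell markers 3 were listed, at 320.1 to 751 and 327 to 433. Most of the B cell sum was Cd79b, the only 1 of them at the tested level, at 306 to 737 in WT and 316 to 415 in KO. The myeloid gene Lyz2 was at 47.5 in WT 3 and at 482 to 1274 in the other libraries. Erythroid markers, of which 5 of 7 were listed and 4 globin genes were tested, summed to 642 to 2809 in WT and 77.4 to 239 in KO. All 4 tested globin genes were lower in KO with no overlap, beside 1.93% of all tested genes. None of them had a limma adjusted p under 0.05. In each of these 3 lists WT 2 was the highest library, and no listed marker was at 0 in every library. WT 2 was the most extreme library, with the lowest value of 27.1% and the highest value of 29.2% of tested genes. KO 3 followed with 20.3% and 21.0%, and WT 3 with 19.2% and 16.7%. Among the tested members WT 3 was the lowest library for 7 and the highest for 11, and KO 3 for 6 and 9. Ribosomal protein genes took 7.57% of WT 2 and 4.38% to 5.52% of the others. What part these differences have in the results below was not tested beyond leaving libraries out. In sorted bulk samples, fewer cells that express a gene and less RNA per cell cannot be told apart.

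Usp8 was higher in every Hpgd-deficient library than in any WT library, while the rest of the family summed to similar levels in both groups. Levels are normalized counts, the deposited values minus the 1 that they hold as an offset. Usp8 (chromosome 2, 126707328 to 126759297, plus strand; protein-coding) was at 488, 371, 353 and 519 in WT 1 to 4, and at 587, 624 and 805 across KO 1 to 3. WT 4 and KO 1 came nearest to each other, and KO 3 was the highest of all. Group means were 433 ± 83.0 in WT and 672 ± 117 in KO (SD, n = 4 and n = 3), a log2 fold change of 0.64 (SE 0.23) on the log2(normalized count + 1) scale used throughout. Between 312 and 774 reads per library stand behind these levels. Leaving out any 1 library gave log2 fold changes between 0.50 (without KO 3) and 0.73 (without WT 4). Without both WT 2 and KO 3 it was 0.44.

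Set against its family, Usp8 took a larger share in KO. It made up 2.59%, 2.47%, 1.82% and 2.69% of the normalized counts summed over all 45 members in WT 1 to 4, compared with 3.18%, 3.27% and 3.93% in KO 1 to 3. The shares of the groups did not overlap. They hold the same Usp8 levels by which Usp8 was chosen, so this separation is not a second result. The other 44 members summed to 18351, 14632, 19032 and 18752 in WT, against 17899, 18472 and 19707 in KO. WT 2 was far below the other libraries, which overlapped between the groups. The mean of this sum was 17692 ± 2059 in WT and 18693 ± 924 in KO (SD, n = 4 and n = 3), and without WT 2 the WT mean was 18711 ± 343 (SD, n = 3).

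**Figure D1:**
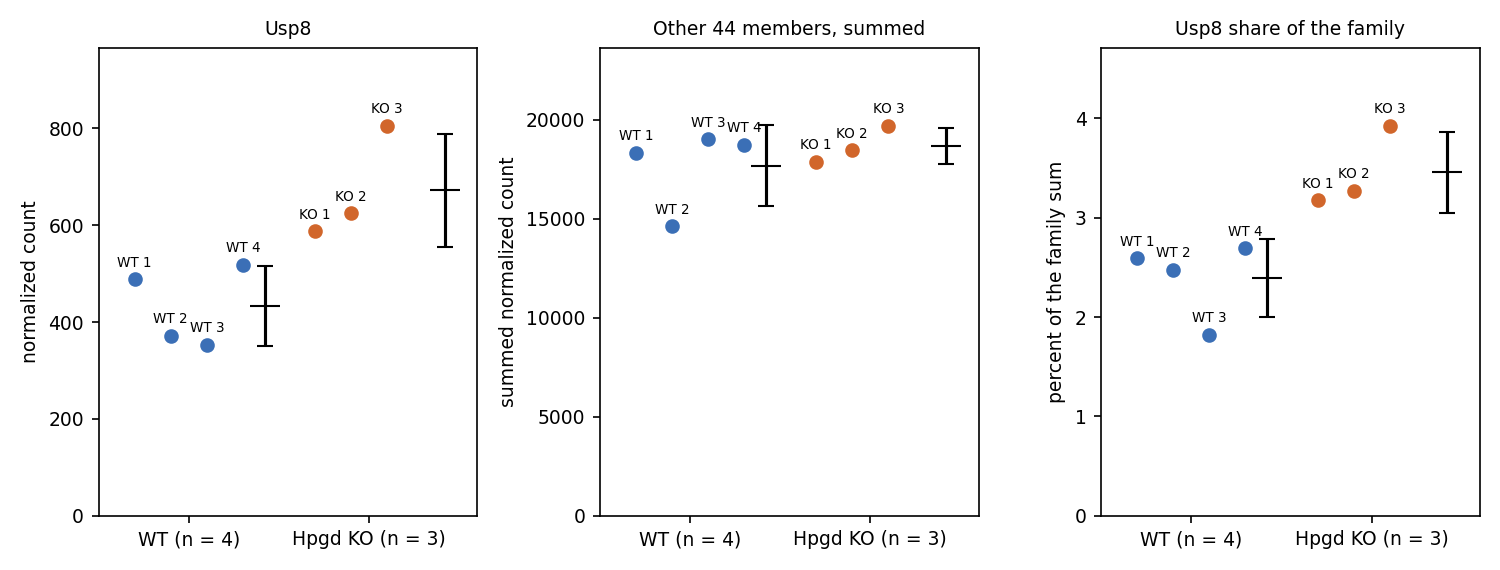
Usp8 level, the summed level of the other 44 members and the Usp8 share of the family sum in each library; points are libraries, and the bar beside them is mean ± SD of 4 WT and 3 KO libraries. Usp8 and its share were higher in all KO libraries than in any WT library, while the summed level of the others overlapped and WT 2 lay lowest at 14632.

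Levels of the members spanned more than 2 orders of magnitude. To compare genes, normalized counts were divided by the length of all annotated exons in kb. Usp25 was highest at 221 ± 35.1 normalized counts per kb (SD, n = 7), followed by Usp3 at 214 ± 29.0, Usp39 at 181 ± 37.2, Usp7 at 163 ± 13.7 and Usp8 at 128 ± 37.2. Usp25 and Usp3 differed by less than the SD of either, and so did Usp8 and Usp4, and Usp4 and Usp1, as neighbours in this order. In all, 7 members reached at least 100 per kb. At the other end were Usp44 at 0.739, Usp26 at 1.38, Usp29 at 1.67, Usp2 at 1.99 and Usp49 at 2.22 per kb. The order depends on the length chosen. Divided by the longest coding transcript, Usp4 came first at 280.1 per kb and Usp8 came in place 9, while Usp44 and Usp26 stayed the lowest.

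**Figure D2:**
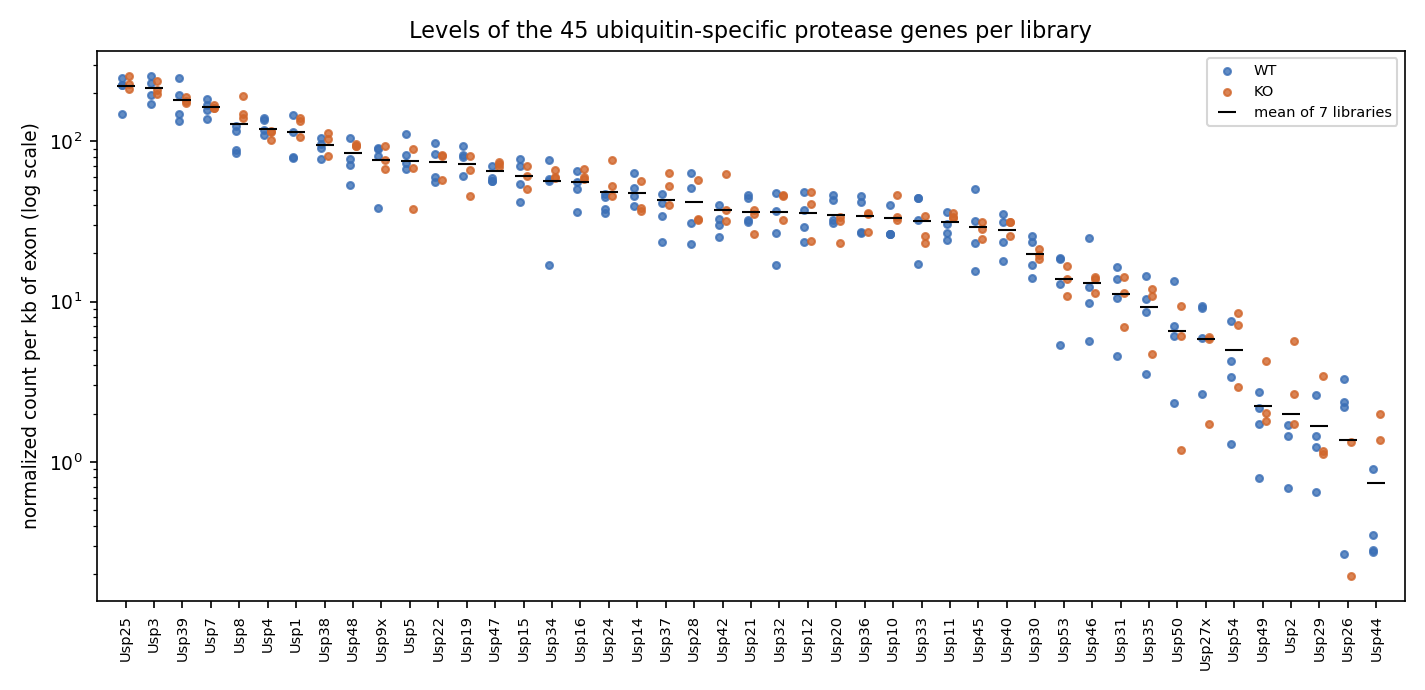
Normalized count per kb of exon, on a log scale, for the 45 members in order of their mean over 7 libraries (dash); blue points are 4 WT and orange points 3 KO libraries, and a library at 0 is not drawn. Usp25, Usp3, Usp39, Usp7 and Usp8 lead, and Usp44 is lowest at 0.739.

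No member passed the test of KO against WT. In limma with Benjamini-Hochberg adjustment over 11787 genes, 0 of 42 tested members and 0 genes in all (0%) had an adjusted p under 0.05. For the 41 members other than Usp8 the lowest limma adjusted p was 0.9996. Without adjustment, 1 member, Usp8, had a p under 0.05, which 1.79% of all tested genes also had, and voom on reads recovered from the table gave the same counts of 0 and 1. The groups did not overlap for 1 of 42 members, again Usp8 and higher in KO, beside 3.65% of all tested genes (1.71% higher and 1.93% lower). Since Usp8 was singled out from this contrast, nothing is read from these counts of 1. The half-width of a member's 95% interval, which is not adjusted for the number of genes, had a median of 0.59 log2 units. Smaller differences, and after adjustment also larger ones, could go undetected for most members.

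Estimates leaned towards higher levels in KO, but less so without KO 3 and no longer without WT 2. KO estimates were above WT for 32 and below for 10 of the 42, beside 51.8% above over all tested genes. The median member log2 fold change was 0.11 against 0.01. Without WT 2 the counts were 20 higher and 22 lower with a median of -0.01, and without both WT 2 and KO 3 they were 21 and 21. Without KO 3 alone they were 25 and 17 with a median of 0.08. The log2 level of KO 3 minus the mean of the other KO libraries had a median of 0.17 over the members. Over all tested genes with a transcript length that median was -0.003. By estimate Usp8 was second of 42, after Usp54, whose SE was 0.62. Across the 18 alternative settings Usp8 ranked between 1 and 5 in the family. Among all tested genes the Usp8 estimate from all 7 libraries lay at percentile 93.9.

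**Figure D3:**
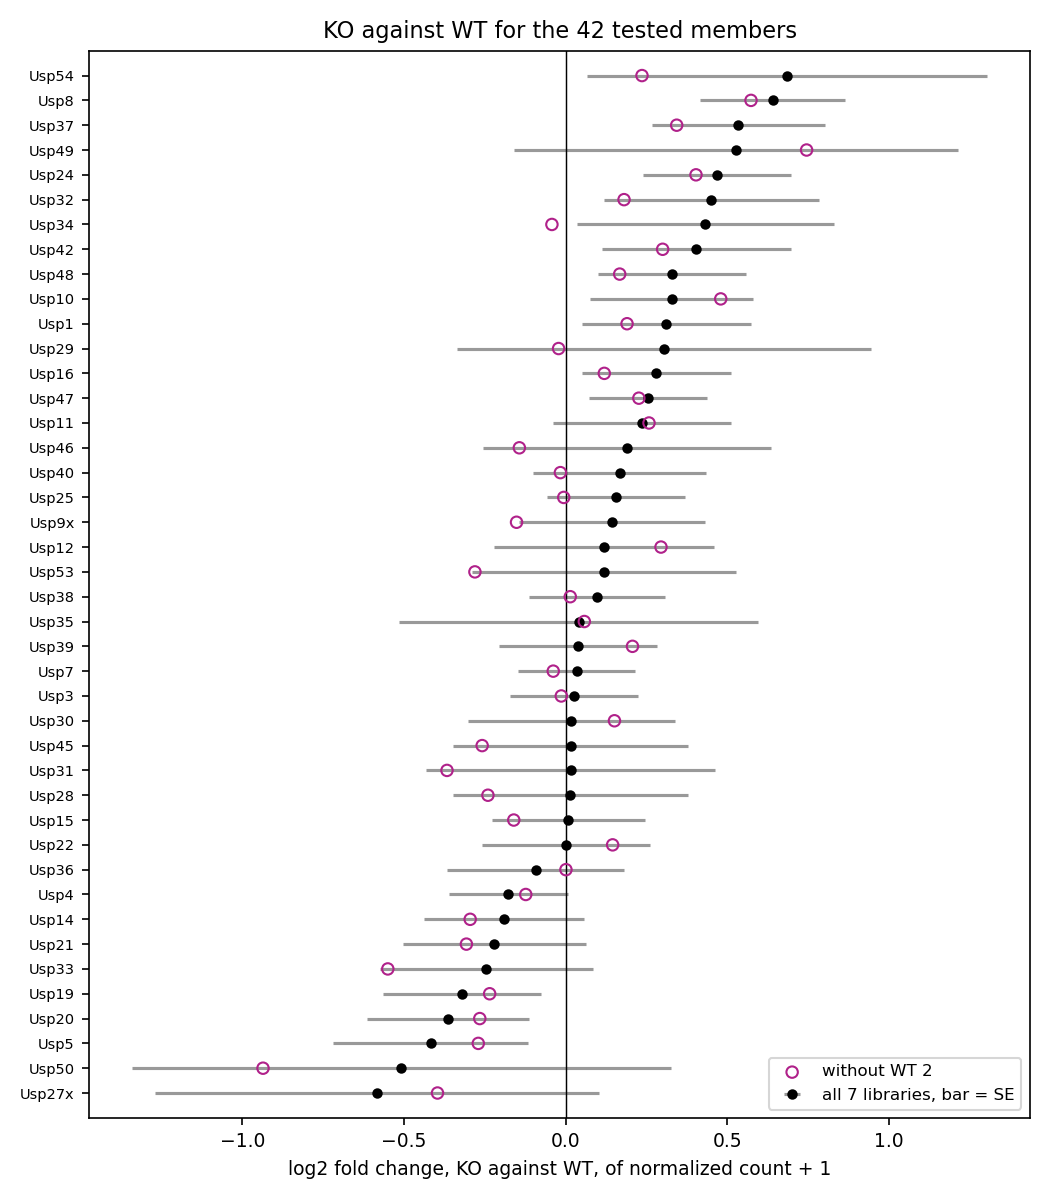
Log2 fold change of KO against WT for the 42 tested members; black points with bars are estimates ± SE from all 7 libraries, and open circles are estimates without WT 2. Usp8 keeps a high estimate (0.57 without WT 2), whereas that of Usp34 moves from 0.43 to -0.04.

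Among the 7 members that act at membranes and organelles, 4 had higher and 3 lower estimates in KO, and Usp8 was the highest per kb. The split was 2 and 5 without KO 3, and 3 and 4 without any 1 of KO 1, WT 1, WT 3 or WT 4. Usp19, an ER-anchored protease, was next at 72.4 per kb and had normalized counts of 576, 655, 428 and 561 in WT 1 to 4, and of 568, 464 and 322 across KO 1 to 3. KO 3 was the lowest library for Usp19 and the groups overlapped, with a log2 fold change of -0.32 (SE 0.24) that was -0.10 without KO 3. Usp20, which deubiquitinates receptors that recycle to the cell surface, was at 293, 416, 387 and 279.7 in WT 1 to 4, and at 304, 208 and 287 across KO 1 to 3. WT 2 and WT 3 were its highest and KO 2 its lowest libraries (log2 fold change -0.36, SE 0.25). Usp32, a membrane-anchored member linked to late endosomes, was at 205, 130.4, 365 and 282 in WT 1 to 4, and at 352, 247 and 353 across KO 1 to 3. Its WT libraries spanned the KO range, from WT 2 below to WT 3 above (log2 fold change 0.45, SE 0.33, and 0.18 without WT 2). The mitochondrial Usp30, and Usp33 and Usp35, had log2 fold changes of 0.02, -0.24 and 0.04.

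Both listed members that trim chains at the proteasome or in free form had lower estimates in KO, but that of Usp5 turned without WT 2 and KO 3. Usp5, which takes apart unanchored ubiquitin chains, was at 312, 513, 379 and 336 in WT 1 to 4, and at 315, 411 and 175 across KO 1 to 3. WT 2 was its highest and KO 3 its lowest library, and the log2 fold change was -0.42 (SE 0.30), -0.07 without KO 3 and 0.08 without WT 2 and KO 3. The proteasome-bound Usp14 was at 379.5, 329.5, 429 and 529 in WT 1 to 4, and at 307, 319.9 and 474 across KO 1 to 3, with overlapping groups and a log2 fold change of -0.19 (SE 0.25). Exons of Usp14 overlap the gene Thoc1 on the other strand over 26.0% of their length, and the library protocol keeps no strand, so reads there cannot be assigned with certainty. Usp13, the paralog of Usp5, is not among the listed genes.

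In the group that acts on histones and chromatin, 5 of 8 tested members had higher and 3 lower estimates, and 4 and 4 without any 1 of KO 1, KO 3, WT 3 or WT 4. Usp3, a protease of ubiquitinated histones, was the second member of the whole family per kb and was at 1587, 1325, 1171 and 1745 in WT 1 to 4, and at 1431, 1623 and 1359 across KO 1 to 3. All KO values lay within the WT range and its log2 fold change was 0.03 (SE 0.20). Usp22, the deubiquitinase of the SAGA complex, which also stabilises Foxp3, was at 409, 478, 274 and 294 in WT 1 to 4, and at 395, 282 and 401 across KO 1 to 3 (log2 fold change 0.00, SE 0.26). WT 2 was its highest and WT 3 its lowest library. Usp16, which removes ubiquitin from histone H2A, was at 617, 343, 528 and 474 in WT 1 to 4, and at 552, 633 and 566 across KO 1 to 3. Its log2 fold change was 0.28 (SE 0.23), 0.12 without WT 2, and WT 1 lay within the KO range. Usp42 was at 249.7, 158, 204 and 188 in WT 1 to 4, and at 197, 231 and 392 across KO 1 to 3, with KO 3 well above the rest (log2 fold change 0.41, SE 0.29, and 0.11 without it). Usp21, another protease known to act on Foxp3, was at 220.0, 150.3, 209 and 153 in WT 1 to 4, and at 178, 166 and 125 across KO 1 to 3. KO 3 was its lowest library (log2 fold change -0.22, SE 0.28, and -0.07 without it). Usp44, likewise linked to Foxp3, rested on 21 reads in all 7 libraries and was at 1.10, 3.62, 1.13 and 1.41 in WT 1 to 4, and at 0, 8.08 and 5.52 across KO 1 to 3, below the level at which genes were tested. Usp36, Usp27x and Usp49 had log2 fold changes of -0.09, -0.58 and 0.53, the last from 132 reads. Without KO 3 those of Usp27x and Usp49 were -0.03 and 0.15, and without WT 2 that of Usp36 was 0.00.

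Members of DNA replication, repair, the p53 pathway and the cell cycle had estimates of 1 direction in all 7 libraries together, but not when WT 2 was left out. All 11 tested members of this group had higher estimates in KO (median log2 fold change 0.30), while none passed the test (limma adjusted p of at least 0.9996). Without WT 2 this was 7 of 11 with a median of 0.19, and without both WT 2 and KO 3 8 of 11 with 0.19. Usp7, which stabilises Mdm2, p53 and Foxp3, was the steadiest of the abundant members, at 1419, 1069, 1301 and 1218 in WT 1 to 4, and at 1261, 1252 and 1315 across KO 1 to 3 (log2 fold change 0.04, SE 0.18). WT 1 was its highest and WT 2 its lowest library. Usp48 was at 689.7, 518, 1019 and 756 in WT 1 to 4, and at 902, 902 and 927 across KO 1 to 3, with WT 3 above all KO libraries (log2 fold change 0.33, SE 0.23, and 0.17 without WT 2). Usp1, which acts in DNA crosslink repair with its cofactor Wdr48, was at 296, 293, 429 and 548 in WT 1 to 4, and at 399, 518 and 500.2 across KO 1 to 3. WT 4 exceeded every KO library (log2 fold change 0.31, SE 0.26, and 0.19 without WT 2). Usp37, which opposes cyclin A breakdown, was at 455, 263, 377 and 518 in WT 1 to 4, and at 583, 442 and 706 across KO 1 to 3. Its log2 fold change of 0.53 (SE 0.27) was the third of the family, and it fell short of separation because WT 1 and WT 4 lay above KO 2. Usp24 was at 578, 443, 555 and 466 in WT 1 to 4, and at 562, 649 and 951 across KO 1 to 3, where WT 1 lay just above KO 1, and KO 3 was far above the rest (log2 fold change 0.47, SE 0.23, and 0.25 without KO 3). For Usp10, a p53 and stress granule protease, WT 1, WT 3 and WT 4 lay at 252 each and WT 2 at 385, while KO 1 to 3 were at 322, 308 and 439. Without WT 2 the Usp10 groups did not overlap (0.48), beside 7.82% of all tested genes. For Usp47, a base excision repair regulator, only WT 4 at 964 reached the KO values of 954 to 1028 (log2 fold change 0.26, SE 0.18). Usp10 and Usp47 were chosen after their values were seen. Usp11, Usp28, Usp29 and Usp45 had log2 fold changes between 0.02 and 0.30. Usp26, a testis-enriched member, was below the tested level, at 1.10, 9.05, 13.6 and 9.84 in WT 1 to 4, and at 0, 0.808 and 5.52 across KO 1 to 3.

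Signalling proteases and less studied members had 9 of 10 tested estimates higher, and this count turned when WT 2 was left out. It was then 2 of 10, with a median of -0.08 against 0.13 in all 7 libraries. Usp25, a regulator of TRAF-dependent signalling in immune cells and the highest member per kb, was at 1170, 774, 1174 and 1295 in WT 1 to 4, and at 1108, 1191 and 1333 across KO 1 to 3. Only WT 2 lay clearly apart, below the rest (log2 fold change 0.16, SE 0.21). Usp9x, a large protease with a role in T cell receptor signalling, was at 1217, 577, 1358 and 1357 in WT 1 to 4, and at 1018, 1148 and 1399 across KO 1 to 3. WT 2 held less of it than any other library, and the log2 fold change turned from 0.14 (SE 0.29) to -0.15 without it. Usp34, linked to Wnt signalling, was likewise lowest in WT 2, at 1070, 312, 1419 and 1048 in WT 1 to 4, and at 1220, 1100 and 1087 across KO 1 to 3. Its log2 fold change was 0.43 (SE 0.40) in all 7 libraries. Its exons overlap Ahsa2 on the other strand over 11.6% of their length. Usp4, a TGF-beta receptor protease, was the only tested member of the group with a lower estimate, at 1166, 1202, 946 and 1009 in WT 1 to 4, and at 982, 997 and 879 across KO 1 to 3 (log2 fold change -0.18, SE 0.18). KO 3 was its lowest and WT 2 its highest library, and the groups overlapped. Usp38 was at 520.3, 443, 554 and 598 in WT 1 to 4, and at 464, 591 and 647 across KO 1 to 3 (log2 fold change 0.10, SE 0.21). The Usp4 paralog Usp15, Usp12, Usp31, Usp40 and Usp46 had log2 fold changes between 0.01 and 0.19. Usp2 lay below the tested level and rested on 74 reads, at 3.3, 8.15, 0 and 7.03 in WT 1 to 4, and at 8.35, 27.5 and 12.9 across KO 1 to 3. Every KO library exceeded every WT library for Usp2, but KO 1 and WT 2 differed by little. Over all genes in the table the groups did not overlap, in either direction, for 3.67%. The Y-linked Usp9y and Usp43 are not among the listed genes.

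Members long annotated as inactive were led by Usp39, which is needed for splicing and lacks the cysteine codon as shown above. It was at 474, 609, 326 and 362 in WT 1 to 4, and at 425, 437 and 463 across KO 1 to 3, highest in WT 2 and lowest in WT 3, with a log2 fold change of 0.04 (SE 0.24). Usp54 was at 68.2, 11.8, 30.5 and 38.7 in WT 1 to 4, and at 26.6, 77.6 and 64.4 across KO 1 to 3. It had the highest estimate of the family (log2 fold change 0.68, SE 0.62), yet KO 1 lay below 3 of the 4 WT libraries, and without WT 2 the estimate was 0.24. Its paralog Usp53 was at 162, 67.9, 233 and 237 in WT 1 to 4, and at 173, 211 and 136 across KO 1 to 3, again lowest in WT 2. Usp50, the neighbour of Usp8, was low at 22.0, 7.24, 41.8 and 19.0 in WT 1 to 4, and at 19.0, 29.1 and 3.68 across KO 1 to 3. Its log2 fold change of -0.51 (SE 0.83) turned to 0.29 without KO 3, which held 2 of the 155 Usp50 reads.

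Low values in WT 2 were common across the family. WT 2 was the lowest library for 22 of 42 members (52.4%), beside 27.1% of all tested genes, and the highest for 7. Its log2 level minus the mean of the other 3 WT libraries had a median of -0.38 over the members and 0.08 over all tested genes with a transcript length. Members have long transcripts, with a median longest coding transcript of 4760.5 bases against 3163. The 12 members with at least 6000 bases had a median WT 2 difference of -1.14, and the 9 with fewer than 4000 bases 0.09. Over all 11061 genes the same classes had -0.57 (1532 genes) and 0.27 (7195 genes). Across the 42 members, which share the same libraries and are not independent replicates, the difference had a Pearson r of -0.29 with log2 length and a Spearman rho of -0.38, and across all genes -0.33 and -0.40. Usp34 and Usp9x, among the longest, differed by -1.90 and -1.18, whereas Usp8, with 4154 bases, differed by -0.27. Whether RNA quality has a part in this was not tested.

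**Figure D4:**
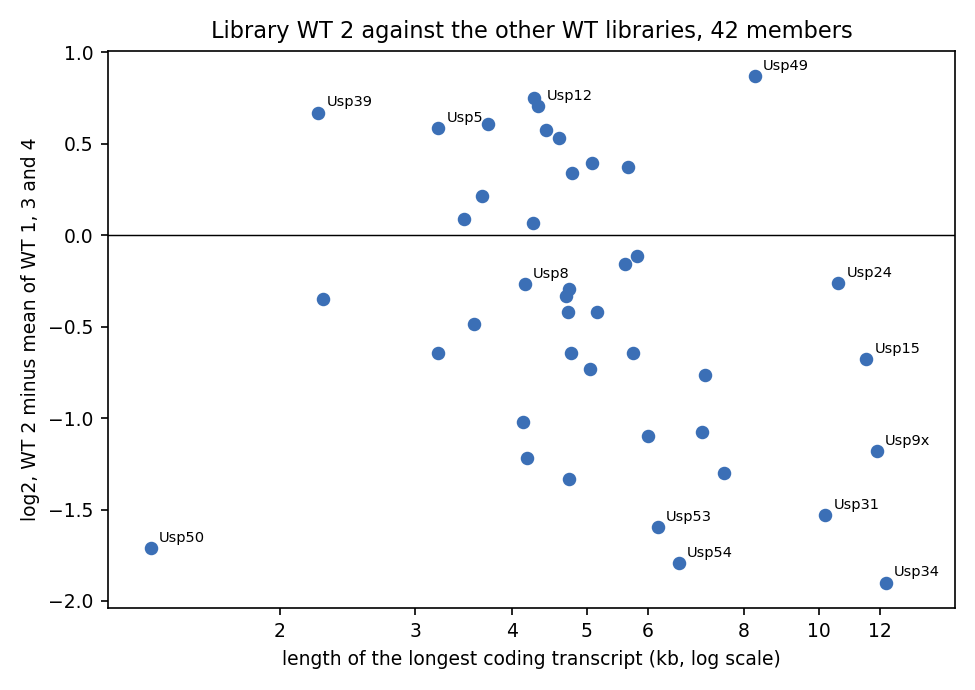
For each of the 42 tested members, the log2 level in WT 2 minus the mean of WT 1, 3 and 4, against the length of its longest coding transcript in kb on a log scale. Of the 12 members from 6 kb upward 11 lie below 0, Usp49 being the exception, and Usp34 is lowest at -1.90.

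Other deubiquitinases and the partners of USPs had estimates in both directions. Of 35 listed genes of other deubiquitinase families or with a USP fold under another name, 34 were tested, 20 above and 14 below WT by their KO estimates, and their median log2 fold change was 0.10. None passed the limma test or an unadjusted p under 0.05, and the groups did not overlap for 1, Otud5 (-0.26), beside 3.65% of all genes. By family, the members with the smallest p were Tnfaip3, the NF-kB inhibitor A20, and Otud5 among the OTU proteases (0.53 and -0.26), Uchl3 and Uchl4 among the UCH proteases (0.28 and -0.94), and Josd1 and Atxn3 among the Josephin proteases (0.26 and 0.27). They were Cops5 and Mpnd among the JAMM metalloproteases (0.21 and -0.29), Zufsp and Mindy1 in the remaining families (0.51 and -0.37), and Uspl1 and Pan2 with a USP fold (0.19 and -0.14). Among 11 tested USP cofactors 7 had higher and 4 lower estimates, and those with the smallest p were Gmps, a partner of Usp7, and Atxn7l2 (0.30 and 0.69).

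The ESCRT machinery, with which Usp8 works, had a median near 0. Of 32 tested ESCRT genes and Usp8 partners, KO estimates were above WT for 12 and below for 20, beside 51.8% above over all tested genes (median log2 fold change -0.04), and none passed the limma test or an unadjusted p under 0.05. WT 2 was the highest library of the summed list, and its part in these estimates was not tested. Stam2, a direct Usp8 partner in ESCRT-0, was at 396, 277, 429.8 and 514 in WT 1 to 4, and at 411, 364 and 443 across KO 1 to 3, with overlapping groups. Rnf41, a ubiquitin ligase stabilised by Usp8, was at 378 ± 94.4 in WT and 288 ± 85.4 in KO (SD, n = 4 and n = 3), and Grap2, the T cell adaptor Gads that binds Usp8, was at 284 ± 76.9 in WT and 308 ± 22.9 in KO. These 3 partners were chosen for their known link to Usp8. Of the list, the ESCRT-III gene Chmp2b was the 1 member whose groups did not overlap (0.40), beside 3.65% of all tested genes, and the ESCRT-I gene Mvb12a had the smallest p (-0.64).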

How the data were processed

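SmartSeq2 libraries were prepared from 10 ng of RNA, a protocol that keeps no strand and has no molecular identifiers, and run on a NextSeq 500, per the labels' protocols (bcl2fastq2 2.20). CASAVA 1.8, kallisto 0.44, Partek 6.6, R 3.3.1, DESeq2 and mm10 are listed in the submitters' processing notes without role or order. The authors deposited a size-scaled signal for each gene in each library. Every value held an offset of 1, and after its removal 100% were whole multiples of the worth of 1 read (tolerance 0.01 read). Normalized counts here are the values less this offset, and reads are those multiples.

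The comparison was fitted to all 7 libraries with limma 3.58.1 (R 4.3.3), taking log2 of the normalized count plus 1, with a trend in the prior, no covariate and a mean of at least 10 normalized counts. The planned edgeR and DESeq2 fits were not run, and voom on the recovered reads was the read-based alternative. No library pair agreed within sampling noise (chi-square per degree of freedom of at least 12.0). Genes named were Usp8, in each of 6 role groups the 3 highest per kb and the 2 with the smallest p, members whose groups did not overlap, Usp7, Usp9x, Usp9y, Usp21, Usp22 and Usp44, and in other lists the 2 with the smallest p, of which 1 list is not reported here. Members and lists were chosen with earlier results of these data known. Gene positions, exon lengths, transcripts and 31-base words, the default of kallisto, are from GENCODE M21 (GRCm38). The cysteine stretch was found by translating each longest coding transcript that holds 1 match to a pattern of residues. This pattern allowed cysteine or aspartate at the catalytic place and included the Usp39 stretch as written.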

Additional observations from a re-analysis of the deposited data

Results flagged for a closer look

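In 5 of 49 sets of 4 WT values, 1 library stood far from the other 3. Chance gives such a gap in about 1 in 20 independent sets, but these sets share the same 4 libraries, and the family sums below differ only by Usp8. The family sum in WT 2 was 15003 normalized counts and the sum without Usp8 was 14632, both far below the other WT libraries. Usp10 stood apart in WT 2, at 385. Usp47 stood apart in WT 4, at 964. Usp44 stood apart in WT 2, at 3.62, which rests on 4 reads.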

How the results depend on the processing

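Over 18 alternatives, 0 members passed in each, and Usp8 stayed higher in KO with log2 fold changes of 0.43 (array weights) to 0.73. Changes of the filter and the prior left the Usp8 log2 fold change at 0.64. The replicate block and the fit without WT 4 gave the same 0.73. Usp8 was chosen by its difference in these libraries, so the alternatives are not separate checks of its direction. Genes passing over the whole table numbered 4 with array weights, 3 under the replicate block, 4 without WT 2 and KO 3, and 0 in the others. Members with groups that do not overlap numbered 2 under the replicate block, beside 7.21% of all genes, 7 without WT 2 and KO 3, beside 18.9%, and 2 to 5 when 1 library was left out, beside 6.32% to 11%. Fewer libraries make such separation easier by construction. Members with higher estimates numbered 21 without WT 2 and KO 3, 22 with array weights and 26 with voom, and 20 (without WT 2) to 29 when 1 library was left out. Their median log2 fold change then ranged from -0.01 to 0.22. The Usp8 share of the family differed by 1.06 percentage points between KO and WT, and by 1.95 from values per kb, where long members weigh less. Of the 42 members, 19 kept their sign in every alternative, 13 higher and 6 lower. No pairing by the numbers in the titles was seen: deviations of same-numbered libraries correlated at 0.01, -0.04 and 0.09. So few libraries cannot exclude a pairing. With the replicate block over numbers 1 to 3 the Usp8 log2 fold change was 0.73, with 28 members higher. Of 45 levels per kb, 18 moved by less than 1 SD with the longest coding transcript. The edgeR and DESeq2 alternatives were not run. Depth limits low members: Usp44, Usp26 and Usp2 rest on 21, 41 and 74 reads, and KO 3 had the fewest reads.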
